A study of Mus musculus with 39 samples.

Results

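The 10 genes described here are listed as markers of border macrophages: Mrc1, Cd163, Lyve1, Pf4, F13a1, Ms4a7, Cbr2, Folr2, Siglec1 and Stab1. They were chosen by symbol, and all 10 were found among the 46333 genes of the female table and the 54532 genes of the male table. Each of the 39 libraries held RNA of CD11b+ cells taken with magnetic beads from the cerebrum, and was treated as 1 mouse. Mice were WT (C57Bl6) or 5XFAD, a transgenic line used as a model of amyloid deposition, with transgenes driven in neurons. From 4 months of age they breathed either chronic intermittent hypoxia (CIH), which alternated 6.5% and 21% oxygen in 90 s intervals for 8 h per day according to the labels, or normoxia (NX, 21% oxygen). Females were taken at 10 months and males at 8 months, so that sex, age and table cannot be told apart, and tests were run within each table alone. Every group had 5 libraries except female WT NX, which had 4, and each library held between 13457293 and 25906121 counted reads. The study's methods give a slightly different low oxygen level and longer daily hours than the labels.

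Border macrophages live in the meninges, along blood vessels and in the choroid plexus, and microglia live in the tissue itself. Both carry CD11b and share many macrophage genes, so bead isolation does not part them. Border macrophages are known for scavenger and lectin receptors that take up proteins, sugars and haemoglobin from the fluids around the brain. The 10 genes are listed as their markers. Stab1 lay far above the other members in level and did not vary with Mrc1 among female libraries. Which cells its RNA came from was not tested. In bulk samples, fewer cells of a type and less RNA per cell cannot be told apart. The isolates were mostly microglial by their own markers: in female WT NX the summed read counts scaled to the size of the library (CPM) of 12 homeostatic microglia genes were 28642 to 32385, against 1442 to 1815 for the 10 members. Most of the members' sum was Stab1, and the other 9 genes summed to 226 to 383 CPM in the same libraries. One library stood apart from its group: in female 5XFAD NX replicate 4 the genes of disease-associated microglia (DAM), which are high in 5XFAD isolates, lay under the WT NX range. Counts of called genes under female NX are given with and without it where it changed them.

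The promoters of 3 members that moved together across female libraries (Mrc1, Cd163 and F13a1) and of Stab1, which did not, are shown as the 250 bases before the RefSeq start site on GRCm38.p6. Capitals mark GAGGAA on either strand (TTCCTC as its reverse complement), the core letters of the site of PU.1, a factor that macrophages need. RefSeq windows were found for 8 of the 10 members.
Mrc1 (chr2:14229164-14229413, + strand): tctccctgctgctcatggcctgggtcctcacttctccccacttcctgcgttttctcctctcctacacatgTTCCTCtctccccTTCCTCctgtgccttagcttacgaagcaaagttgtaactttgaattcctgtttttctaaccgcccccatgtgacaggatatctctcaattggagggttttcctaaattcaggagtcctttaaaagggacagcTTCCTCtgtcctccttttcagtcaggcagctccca
Cd163 (chr6:124304401-124304650, + strand): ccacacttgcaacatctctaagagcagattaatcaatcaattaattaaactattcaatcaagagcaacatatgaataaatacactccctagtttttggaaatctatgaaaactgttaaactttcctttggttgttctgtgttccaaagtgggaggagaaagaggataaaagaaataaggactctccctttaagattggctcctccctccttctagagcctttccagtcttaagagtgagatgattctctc
F13a1 (chr13:37050245-37050494, - strand): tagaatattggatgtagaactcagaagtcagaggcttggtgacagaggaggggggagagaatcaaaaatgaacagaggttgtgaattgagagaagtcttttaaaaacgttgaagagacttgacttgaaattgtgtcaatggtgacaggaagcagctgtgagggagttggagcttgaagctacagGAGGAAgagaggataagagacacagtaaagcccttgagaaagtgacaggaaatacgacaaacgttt
Stab1 (chr14:31168642-31168891, - strand): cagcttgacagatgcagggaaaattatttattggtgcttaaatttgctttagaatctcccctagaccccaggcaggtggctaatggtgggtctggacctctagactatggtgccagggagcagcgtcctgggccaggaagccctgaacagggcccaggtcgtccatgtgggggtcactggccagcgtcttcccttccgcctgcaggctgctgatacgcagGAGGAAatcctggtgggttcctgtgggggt
The motif was in 5 of the 8 members' windows, and in 23.3% of all 32851 windows of that length. Mrc1 held 3 matches, F13a1 and Stab1 held 1 each, and Cd163 held none, so the letters did not separate the genes that moved together from Stab1.

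The 10 genes lay far apart in level. Per length (FPKM, as deposited), Stab1, a scavenger receptor, stood above every other member in both sexes, at 198 ± 23.4 (SD, n = 4) in female WT NX and 114 ± 15.1 (SD, n = 5) in male WT NX. In females the order then ran Pf4 (32.2 FPKM), Mrc1 (25.2), Cbr2 (16.3), F13a1 (14.0), Folr2 (8.81), Ms4a7 (8.36), Siglec1 (6.42), Cd163 (6.40) and Lyve1 (3.68). Each neighbour in that order overlapped the next in its libraries, except Stab1 with Pf4 and Cd163 with Lyve1. In males the order ran Pf4 (39.8 FPKM), Cbr2 (20.2), Mrc1 (18.2), F13a1 (7.06), Cd163 (5.67), Ms4a7 (3.88), Lyve1 (2.75), Folr2 (1.85) and Siglec1 (1.78). Stab1, Pf4 and Mrc1 did not overlap the member below them in males, and the other neighbours did. Values below are CPM, normalised within each table, and are compared between groups only.

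Most of the members were lower in 5XFAD than in WT mice under NX. A gene was called when edgeR's quasi-likelihood test gave a false discovery rate (FDR) under 0.05 over all genes tested and a log2 fold change (log2FC) beyond 1 in size. In females 7 of the 10 members fell and none rose, where 1.59% of the 14513 genes tested were called lower. That count ran from 0 to 7 when any 1 library was left out. Without 5XFAD NX replicate 4 it was 7, where 6.13% of 14149 genes were called lower. In males 6 fell and none rose, where 2.31% of 14834 genes were called lower. The median log2FC of the 10 members was -1.19 in females and -1.06 in males, against -0.02 and 0.02 over all genes tested. The members were chosen as cell markers with earlier results of these data known, and the counts describe them only.

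Among the scavenger and lectin receptors, Mrc1 (the mannose receptor CD206) was at 147, 92.0, 168 and 109.9 CPM in the female WT NX libraries and at 46.3, 50.8, 85.0, 41.0 and 54.2 CPM in the 5XFAD NX libraries. All 5XFAD libraries lay below all WT libraries (log2FC -1.20, SE 0.23, FDR 0.018). In males Mrc1 was at 137, 103, 111, 103 and 131 CPM under WT NX and 40.2, 52.7, 36.9, 70.6 and 62.8 CPM under 5XFAD NX, again with no overlap (log2FC -1.14, SE 0.18, FDR 0.00079). Cd163, the receptor for haemoglobin bound to haptoglobin, was at 33.4, 22.7, 32.4 and 21.0 CPM in female WT NX and 11.5, 11.4, 18.1, 7.53 and 11.3 CPM in 5XFAD NX (log2FC -1.18, SE 0.22, FDR 0.018). In males its level went from 31.2 ± 10.5 (SD, n = 5) to 14.5 ± 4.31 CPM (SD, n = 5), with no overlap (log2FC -1.09, SE 0.25, FDR 0.0089). Stab1 was at 1310.3, 1589, 1325 and 1191 CPM in female WT NX and 414, 411, 708, 995 and 406 CPM in 5XFAD NX (log2FC -1.15, SE 0.31, FDR 0.043). The fourth 5XFAD library lay closer to WT than the other 4 did. This call was lost in 10 of 17 alternative fits, with an FDR of up to 0.12, while the log2FC stayed between -1.49 and -1.03 in all 17. In males Stab1 fell from 1351, 1306, 1015, 1049 and 1186 CPM to 412, 399, 371, 494 and 529 CPM, and here the 5XFAD libraries were close together (log2FC -1.41, SE 0.14, FDR 1.4e-05).

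Lyve1, a receptor for hyaluronan, parted the sexes by the call. Female libraries were at 9.94, 8.76, 11.2 and 7.02 CPM in WT NX and 4.12, 2.77, 5.79, 2.67 and 3.00 CPM in 5XFAD NX (log2FC -1.31, SE 0.24, FDR 0.018). In males the same change was under the limits (log2FC -0.76, SE 0.27, FDR 0.068), with overlapping libraries, and a difference between the sexes was not tested. Siglec1, which binds sialic acid, was not called in either sex: the log2FC was -0.21 (SE 0.19) in females and 0.32 (SE 0.34) in males. Folr2, a folate receptor, had a log2FC of -0.25 in both sexes, with an SE of 0.26 in females and 0.41 in males.

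Of the other members, Pf4, F13a1 and Cbr2 fell in both sexes and Ms4a7 was not called in either. Pf4, a chemokine, was at 31.1, 7.46, 21.3 and 13.04 CPM in female WT NX and 5.51, 4.39, 7.28, 4.01 and 7.01 CPM in 5XFAD NX (log2FC -1.68, SE 0.36, FDR 0.024). Its WT libraries were widely spread, and the lowest of them was just above the highest 5XFAD library. In males Pf4 fell from 27.8, 19.7, 22.2, 38.0 and 37.1 to 20.1, 18.8, 11.8, 8.56 and 6.34 CPM, where 1 of the 5XFAD libraries lay above the lowest WT library (log2FC -1.12, SE 0.31, FDR 0.025). F13a1, a subunit of the factor that crosslinks fibrin, went from 52.9 ± 18.8 (SD, n = 4) to 20.5 ± 5.32 CPM (SD, n = 5) in females (log2FC -1.34, SE 0.25, FDR 0.018). In males the values were 48.0 ± 9.36 and 23.2 ± 6.73 CPM (SD, n = 5 each; log2FC -1.03, SE 0.21, FDR 0.0037), with no overlap in either sex. Cbr2, a carbonyl reductase, was at 14.7, 10.5, 20.1 and 12.8 CPM in female WT NX and 5.57, 5.13, 8.15, 4.17 and 5.19 CPM in 5XFAD NX (log2FC -1.34, SE 0.22, FDR 0.016). Male Cbr2 fell from 26.0, 15.4, 22.5, 35.6 and 35.9 to 12.1, 11.9, 9.70, 6.17 and 6.48 CPM, the largest change of a male member in this comparison (log2FC -1.53, SE 0.27, FDR 0.0016). Ms4a7, a membrane protein of macrophages, was not called, at a log2FC of -0.81 (SE 0.41, FDR 0.19) in females and -0.67 (SE 0.22, FDR 0.051) in males.

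The libraries of the 2 groups did not overlap for 7 members in females and 5 in males, where 12.7% and 7.59% of all genes tested lay lower without overlap. The female count of called members rested on single libraries: it was 0 without WT NX replicate 3, 1 without 5XFAD NX replicate 5, 3 without 5XFAD NX replicate 2 and 4 without WT NX replicate 4. In these refits the genes called over the whole table went from 869 to between 27 and 191, and each member that had been called kept a log2FC beyond -1, the weakest being Stab1 at -1.03, so that the calls were lost by the FDR alone. Over all 17 alternative fits the call of female Cbr2 was lost in 2, of F13a1 and Lyve1 in 3 each, of Cd163 in 4, of Mrc1 in 5 and of Pf4 in 7. The male count was 3 without 5XFAD NX replicate 3, where 298 of 14736 genes were called lower. Of 18 alternative fits in males the call was lost in 5 for Pf4 (weakest log2FC -0.95, FDR up to 0.098), in 4 for F13a1 (weakest log2FC -0.92) and in 2 for Cd163 (-0.88), and in none for Mrc1, Cbr2 and Stab1.

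**Figure D1:**
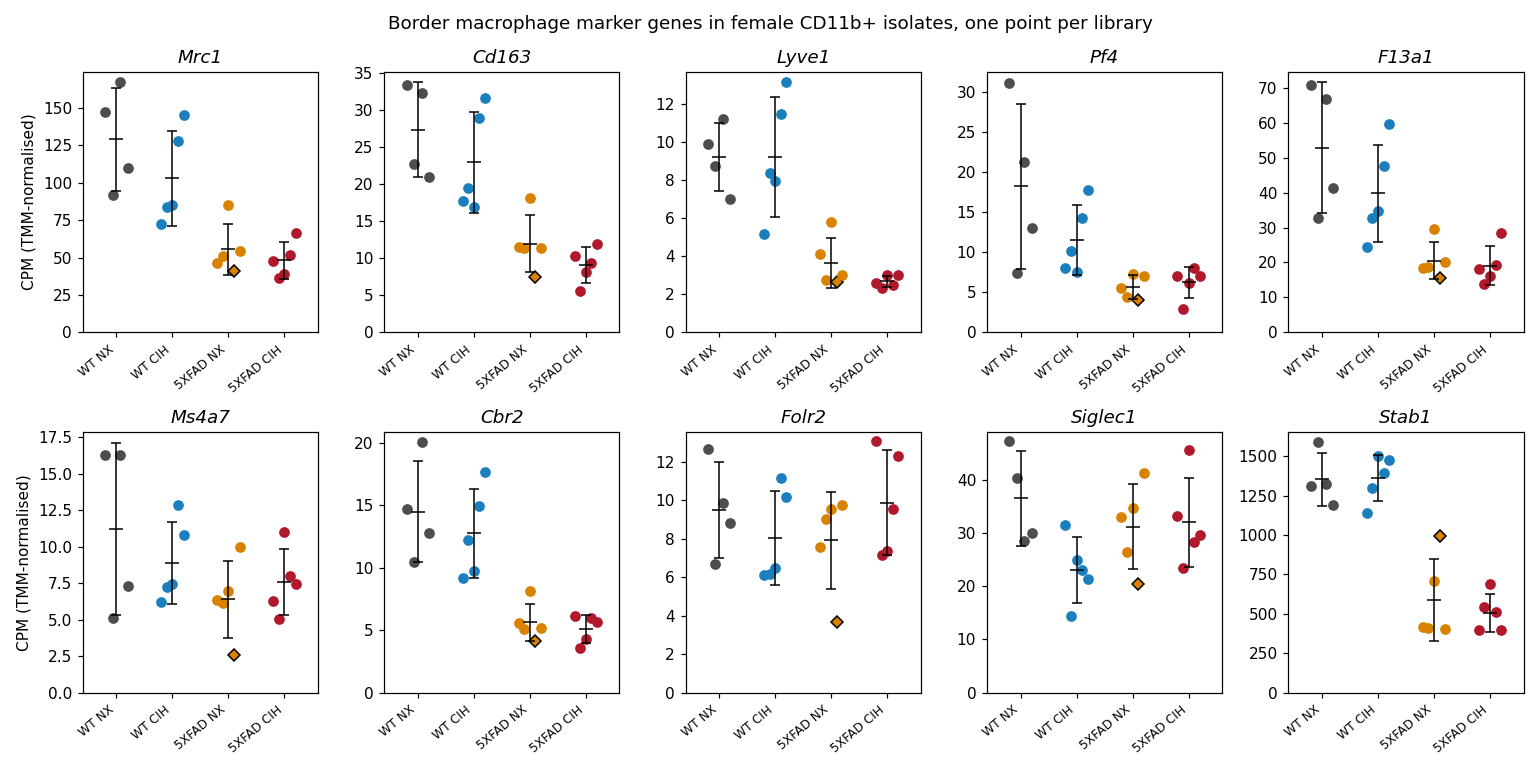
Normalised CPM of the 10 members in the 19 female libraries, one point per library; bars give the mean and SD of each group, and the diamond marks 5XFAD NX replicate 4. Stab1 (406 to 995 CPM in 5XFAD NX, 1191 to 1589 in WT NX) and Mrc1 (41.0 to 85.0 against 92.0 to 168) lay lower in 5XFAD, and Folr2 and Siglec1 overlapped.

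**Figure D2:**
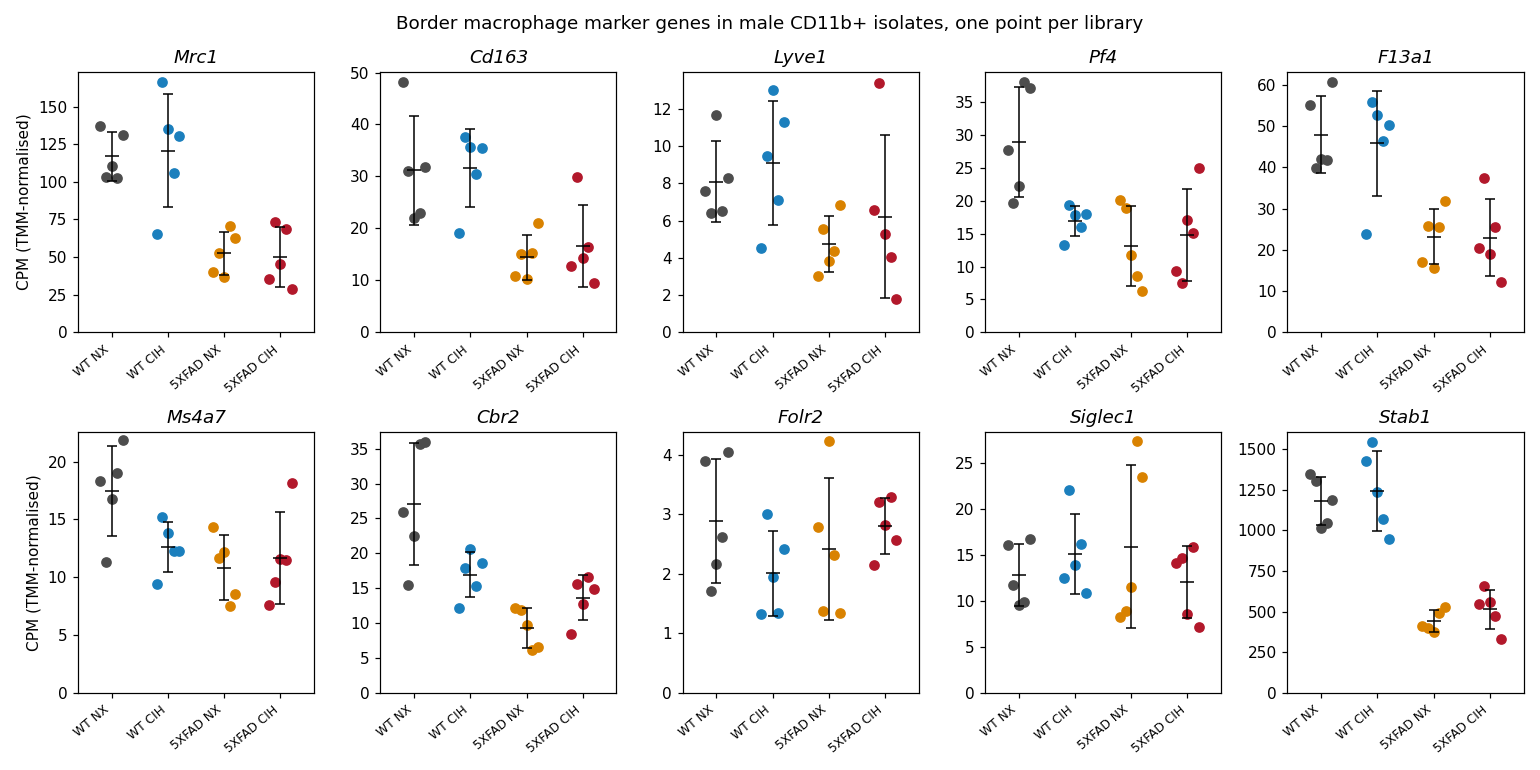
The same for the 20 male libraries, 5 in each group, with bars for mean and SD. Mean Cbr2 was 27.1 (WT) and 9.28 CPM (5XFAD) under NX, and 16.9 (WT) and 13.6 CPM (5XFAD) under CIH, where both groups overlapped.

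Under CIH 6 of the 10 members fell in females and 2 in males, and a difference between the sexes was not tested. In females the 6 were called where 4.12% of 14911 genes were called lower: Mrc1, Cd163, Lyve1, F13a1, Cbr2 and Stab1. Folr2 and Siglec1 were not called, with log2FC of 0.30 and 0.48. Stab1 went from 1141, 1297, 1502, 1394 and 1475 to 397, 542, 689.5, 509 and 395 CPM (log2FC -1.43, SE 0.14, FDR 2.7e-06). Lyve1 showed the largest change, from 5.16, 8.41, 7.97, 11.5 and 13.2 to 2.59, 2.36, 3.00, 2.52 and 3.00 CPM (log2FC -1.78, SE 0.23, FDR 2.5e-05). For both, every 5XFAD library was below every WT library. Cd163 (log2FC -1.34), Cbr2 (-1.32) and Mrc1 (-1.10) did not overlap either, while F13a1 (-1.06) did. Of 18 alternative fits the call was lost in 2 for F13a1 (weakest log2FC -0.87) and in 1 for Mrc1 (-0.94). Pf4 passed the FDR, as 51.9% of all genes did, but not the fold limit (log2FC -0.90, SE 0.28, FDR 0.017), and passed both (log2FC -1.27) when a trend with gene length was removed from each library. Over all genes, 18.0% lay lower in 5XFAD CIH without overlap, and 5 members did.

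In males only Mrc1 and Stab1 were called under CIH, where 6.88% of 14793 genes were called lower and 17.7% lay lower without overlap. Stab1 was at 1432, 1546, 1235, 1068 and 949.8 CPM in WT CIH and 545, 659, 559, 472 and 332 CPM in 5XFAD CIH, the only member without overlap (log2FC -1.24, SE 0.18, FDR 5.0e-05). Mrc1 was at 65.0, 166, 135, 106 and 131 CPM and 35.5, 73.3, 45.5, 68.8 and 28.5 CPM (log2FC -1.22, SE 0.27, FDR 0.0018). The first WT CIH library, at 65.0 CPM, reached into the 5XFAD range. Cd163 (log2FC -0.90) and F13a1 (-0.96) passed the FDR, as 49.0% of all genes did, but not the fold limit. The count was 4 without WT CIH replicate 1 (1001 of 14662 genes called lower) and 5 without 5XFAD CIH replicate 2 (1177 of 14675). It was 1 with the length trend removed, when Stab1 had a log2FC of -0.997, just inside the limit, and 4 when libraries were scaled by total counts alone. That last scaling moved the median of all genes from -0.06 to -0.43, and the genes called higher and lower from 1746 and 1018 to 1147 and 2527.

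**Figure D3:**
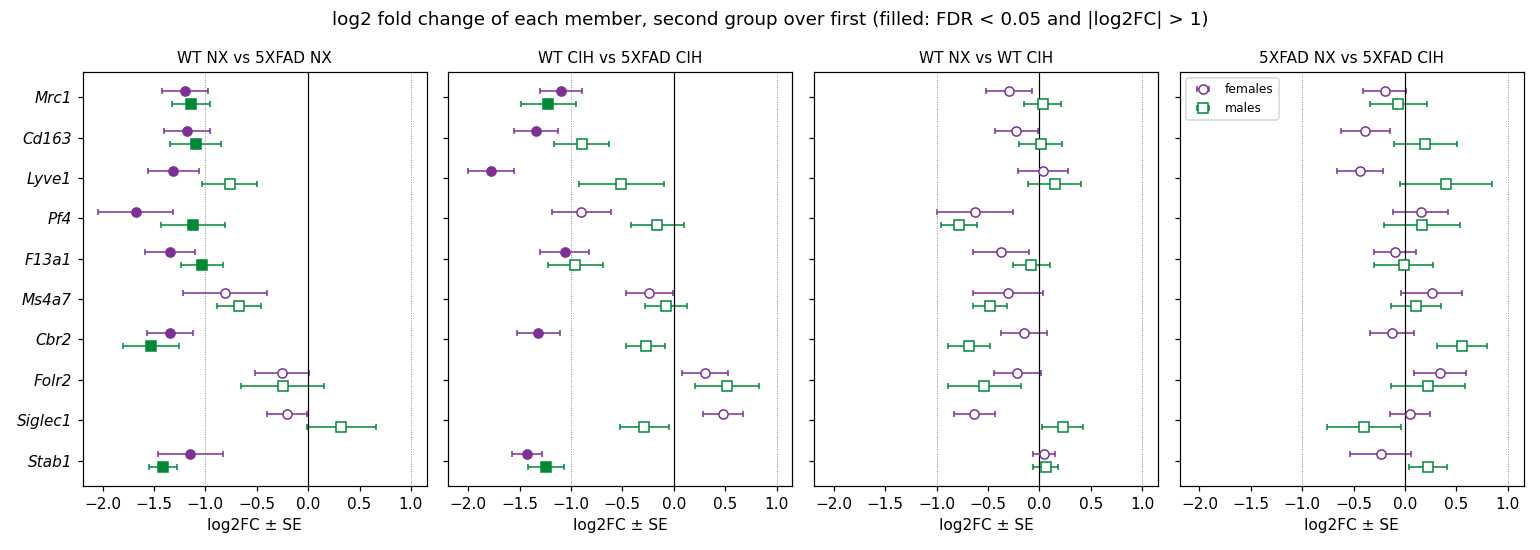
log2FC with SE of each member in 4 comparisons (second group over first; circles females, squares males; filled points are called; dotted lines mark 1 and -1). In both comparisons of 5XFAD with WT the filled points lie left of -1, and no point is filled in the 2 comparisons of CIH with NX.

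CIH against NX gave no called member in either genotype or sex, also without female 5XFAD NX replicate 4. Over all genes the share called was 0% in both female comparisons and in male 5XFAD mice, and 2.51% in male WT mice. In each comparison with no called gene, genes with an unadjusted p under 0.05 numbered 565 (3.87%, female WT), 470 (3.22%, female 5XFAD) and 473 (3.30%, male 5XFAD). Of the members, 1 was among them in female WT mice (Siglec1, log2FC -0.63, SE 0.20), 0 in female 5XFAD mice and 1 in male 5XFAD mice (Cbr2, log2FC 0.55, SE 0.25). DESeq2 called no member in any of the 4.

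In WT males Pf4, Cbr2 and Ms4a7 passed by FDR alone, where 28.6% of 14983 genes passed. Pf4 was at 27.8, 19.7, 22.2, 38.0 and 37.1 CPM under NX and 13.3, 19.4, 17.8, 16.0 and 18.0 CPM under CIH, with every CIH library below every NX library, as for 8.43% of genes (log2FC -0.78, SE 0.18, FDR 0.004). Cbr2 was at 26.0, 15.4, 22.5, 35.6 and 35.9 and 12.2, 18.0, 20.6, 15.4 and 18.6 CPM (log2FC -0.69, SE 0.20, FDR 0.019). Ms4a7 was at 18.3, 11.3, 16.8, 19.1 and 21.9 CPM under NX and 9.42, 15.2, 13.8, 12.3 and 12.3 CPM under CIH (log2FC -0.48, SE 0.17, FDR 0.045). None of the 6 receptors passed in the same libraries. Their log2FC ran from -0.53 (Folr2, SE 0.36, FDR 0.28) to 0.23 (Siglec1), with 0.03 for Mrc1, 0.01 for Cd163 and 0.06 for Stab1. With the length trend removed, Pf4 had a log2FC of -0.36 (FDR 0.12) and Cbr2 of -0.33 (FDR 0.24), while Ms4a7 kept -0.49 (FDR 0.056). With all 4 male groups in 1 fit, FDRs were 0.11 for Pf4, 0.081 for Cbr2 and 0.16 for Ms4a7, and in that fit no gene of 15813 passed. Neutrophil genes moved in the same comparison: 6 of 8 were called lower under CIH, and their summed CPM was 233 to 1235 in WT NX and 113 to 329 in WT CIH. Of 7 monocyte genes 3 were called lower. Their part in the result was not tested.

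Whether the genotype difference itself changed with CIH was tested by the interaction term. No member was called in either sex, where 0% of all genes were (589 of 15582 female genes, 3.78%, and 3857 of 15813 male genes, 24.4%, had an unadjusted p under 0.05). Male Cbr2 was nearest: its log2FC between genotypes was -1.53 under NX and -0.28 under CIH (interaction 1.24, SE 0.34, FDR 0.12). The 5XFAD CIH libraries were at 8.47, 15.6, 12.7, 16.6 and 14.8 CPM, within the range of the WT CIH libraries or below it. It was called with DESeq2 (FDR 0.027), with the likelihood ratio test (FDR 0.045), with no filter, and without 5XFAD NX replicate 1. In those 4 fits 308, 175, 790 and 478 genes of the whole table were called, against 0 here. Male Pf4 had an interaction of 0.96 (SE 0.43, FDR 0.18) and female Siglec1 of 0.67 (SE 0.30, FDR 0.95).

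One female library set Stab1 apart from the other members. 5XFAD NX replicate 4 had summed CPM of 18 DAM genes of 10898, below the WT NX range of 13974 to 22246, where the other 4 libraries of its group had 58377 to 96700. In CPM it was the lowest library of its group for 9 of the 10 members: Mrc1 was at 41.0 CPM, Cd163 at 7.53, Ms4a7 at 2.56 and Folr2 at 3.69. Stab1 was its exception, at 995 CPM, the highest of its group and below the lowest WT NX library (1191 CPM). These ranks rest on the scaling, as its normalization (TMM) factor was 1.27 against 0.848 to 0.952 in the other 4. In FPKM, which uses library totals in females, it was lowest only for Cd163, Ms4a7 and Folr2. Mrc1 was then at 9.79 FPKM, against 7.39, 8.23, 15.2 and 8.90. Stab1 was at 178 FPKM, against 176 in the lowest WT NX library. The summed choroid plexus epithelium genes of that library were also the lowest of the group (24.4 CPM against 61.9 to 400 in the other 4), as were those of homeostatic microglia (21707 against 23292 to 24855) and pan-macrophage genes (4601 against 6319 to 7664). These sums are scaled by the same factor. Without it the homeostatic microglia sum of that library would be the highest of the group. The neutrophil genes of that library summed to 247 CPM, against 10.8 to 62.1 in the other 4. Its library had the steepest rise of level with gene length of the female libraries, at 0.16 log2 CPM per doubling of length. Without it 7 members were still called, at a log2FC of -1.14 for Mrc1 and -1.49 for Stab1. The label was kept as given.

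**Figure D4:**
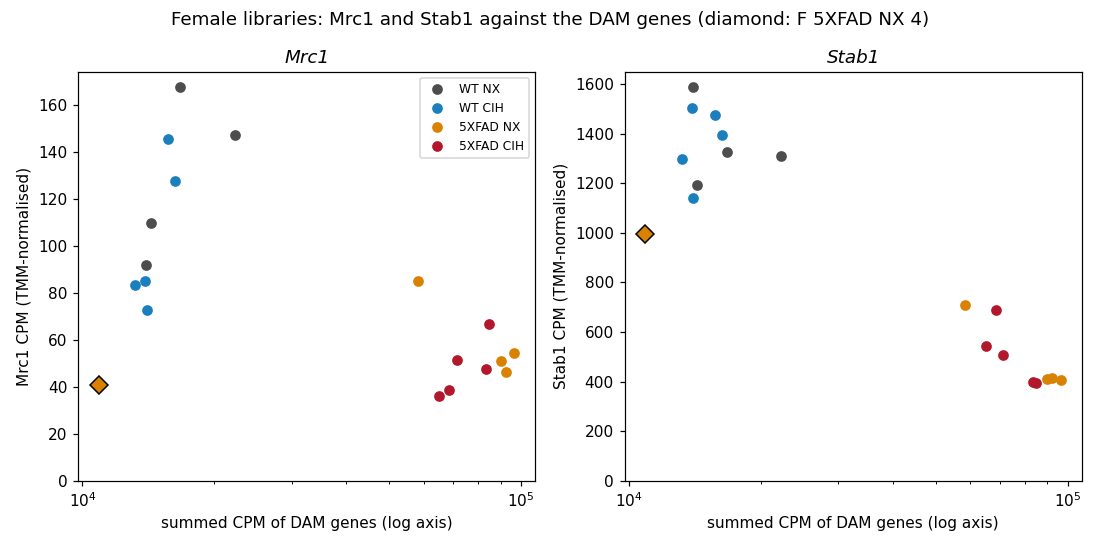
Mrc1 and Stab1 CPM against the summed CPM of 18 DAM genes (log axis) in the 19 female libraries, coloured by group. The diamond, 5XFAD NX replicate 4, had DAM genes at 10898 CPM with Mrc1 at 41.0 CPM, in the 5XFAD range, and Stab1 at 995 CPM, between the 5XFAD and WT ranges.

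How the members varied among libraries of the same group was described by Pearson's r of log2 CPM after each group's mean was subtracted. The 19 or 20 points share libraries, depth and isolation, so no p is given. In females Mrc1 and F13a1 were nearest, at r = 0.97, with Cd163 (0.92) and Cbr2 (0.91) next to Mrc1. Lyve1, Pf4, Ms4a7 and Folr2 had r of 0.65 to 0.79 with Mrc1, whereas Siglec1 (0.05, or -0.089 without 5XFAD NX replicate 4) and Stab1 (-0.11) did not follow it. For Mrc1 the 3 nearest of 15581 genes were all members. Cd209f, a lectin of the further border macrophage genes, was the second nearest to Cd163 (r = 0.91, and the nearest at 0.95 without 5XFAD NX replicate 4), and Cd38 was the nearest to Pf4 (r = 0.87). Stab1 was nearest to Ggt5 (r = 0.97), Eef2k (0.95) and Col6a3 (0.94), none of them members. Without 5XFAD NX replicate 4 its nearest genes were Ggt5 (0.95), Eef2k (0.91) and Kcnt1 (0.90), and its r with Mrc1 was 0.12.

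In males 7 of the 10 members formed 2 sets. Mrc1, F13a1, Cd163 and Lyve1 had r of 0.67 to 0.92 with each other, and Pf4, Ms4a7 and Cbr2 had r of 0.71 to 0.85 with each other. Between the sets r ran from -0.54 to 0.19, and Stab1 and Siglec1 (r = 0.64) were negative with Pf4 (-0.60 each). Siglec1 had r of 0.35 to 0.65 with the first set and Stab1 of 0.45 to 0.58, while Folr2 had 0.30 to 0.52 with the second. The sets also differed in how they followed the slope of each library's log2 CPM on gene length: r with that slope was 0.67 for Mrc1, 0.71 for F13a1, 0.69 for Cd163 and 0.66 for Lyve1, and -0.69 for Pf4, -0.58 for Ms4a7 and -0.37 for Cbr2. Their lengths in the male table were 6371 bases for Mrc1 and 721 for Pf4, while Ms4a7, at 4453, was longer than Lyve1, at 2919. In females the slope went with Stab1 (r = 0.88) and against Folr2 (-0.69), and without 5XFAD NX replicate 4 these were 0.80 and -0.45. The part of this slope in the correlations was not tested.

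**Figure D5:**
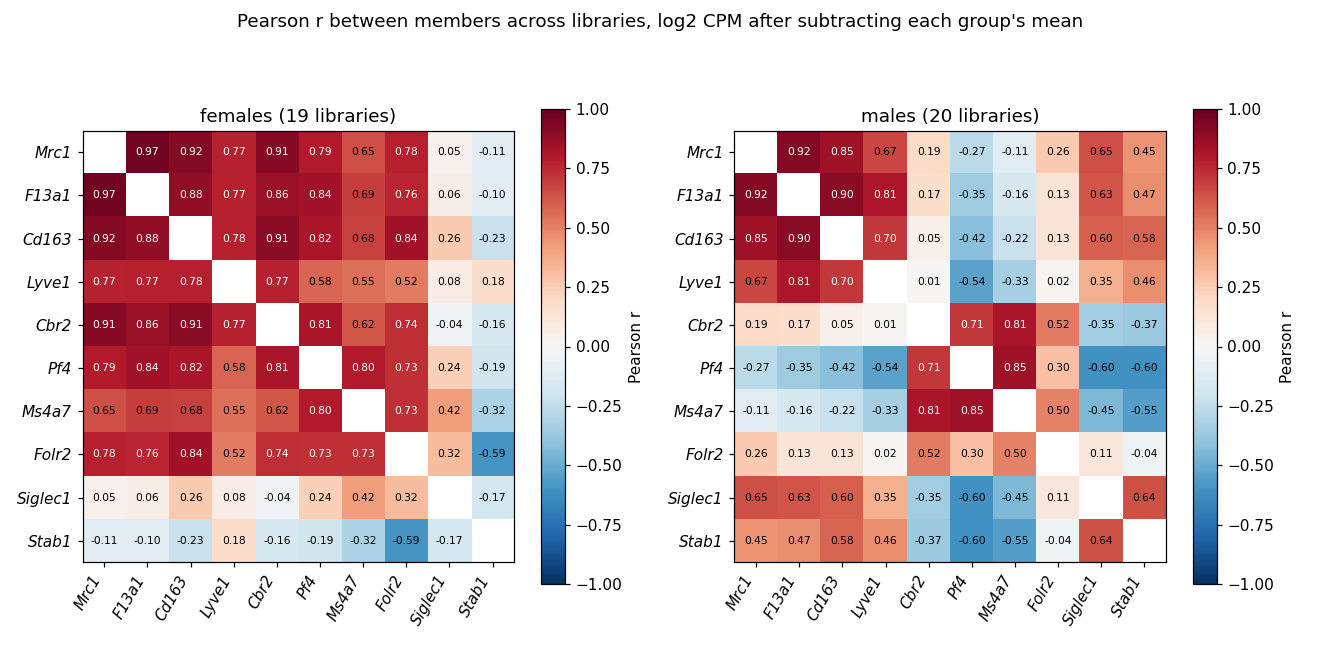
Pearson r between members across libraries, after subtracting each group's mean of log2 CPM, in females (19 libraries) and males (20 libraries). In females a block from Mrc1 to Folr2 is positive and Stab1 stands outside it; in males Cbr2, Pf4 and Ms4a7 form a block of their own.

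A further 22 border macrophage genes, of which 20 were tested, had more called lower than higher in 5XFAD in each comparison, and many not called. Under NX 7 fell and 1 rose in females (12 and 1 without 5XFAD NX replicate 4), and 11 fell and 1 rose in males; under CIH 10 fell and 1 rose in females, and 4 fell and 1 rose in males. The list's median log2FC was -1.15, -1.19, -0.97 and -0.61 in that order. Mgl2 and Cd209a, both C-type lectins, fell in all 4 comparisons: under NX Mgl2 had a log2FC of -2.10 in females and -1.85 in males, and Cd209a of -2.02 and -2.15. Timd4, a receptor for phosphatidylserine, averaged 1.93 CPM in male WT NX and 0.44 CPM in 5XFAD NX. It passed the low-value filter through WT libraries, so its call, counted among the 11 in males under NX, supports nothing. The gene that rose was Colec12, a scavenger receptor with a collectin domain, in all 4 comparisons, from 3.72 ± 2.24 to 48.7 ± 34.8 CPM in females and from 5.29 ± 1.46 to 24.8 ± 5.72 CPM in males under NX. Of these genes Ltc4s, which makes a leukotriene, was at the highest level of those called, at 197 ± 23.0 to 88.5 ± 33.0 CPM in male WT NX and 5XFAD NX (log2FC -1.14, SE 0.23).

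Ligands, partners and pathway enzymes of the members (18 genes, 14 tested) were mixed. None was called in females under NX (3 lower without 5XFAD NX replicate 4) and 1 fell in males under NX. Under CIH 1 rose and 1 fell in females, and 3 rose and 1 fell in males. Over all genes tested under CIH, 8.83% were called higher and 4.12% lower in females, and 11.8% and 6.88% in males. With so few genes called, the counts describe these genes only. Slc40a1, the iron exporter ferroportin, was the gene that fell in those 3 comparisons, by 1.48 on the log2 scale in females under CIH, by 1.14 in males under NX and by 1.71 in males under CIH. Cd44, another hyaluronan receptor, rose under CIH, with a log2FC of 1.86 in females and 1.33 in males. Hmox1, which breaks down haem, rose in males under CIH (log2FC 1.28, SE 0.13), and so did Tnfsf12, a ligand bound by CD163 (log2FC 1.17, SE 0.19). Hp, haptoglobin, fell in WT males with CIH (log2FC -1.41, SE 0.25). Neutrophil and monocyte genes were also called lower in that comparison, and their part in the Hp change was not tested.

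Among 12 macrophage regulators, Csf1, a growth factor of macrophages, rose in all 4 comparisons of 5XFAD with WT, from 29.7 ± 1.87 to 557 ± 32.0 CPM in males under NX. Maf, a transcription factor of macrophages, fell in 3 of them and in females under NX had a log2FC of -0.96 (SE 0.16), inside the fold limit. The other regulators tested were not called. Without 5XFAD NX replicate 4, 1 regulator was called lower in females under NX.

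Markers of other cells were mixed. Of 12 homeostatic microglia genes 1 fell in females under NX (2 without 5XFAD NX replicate 4) and 3 in males, and their median log2FC was -0.57 and -0.69. By FDR alone 8 and 9 passed. Their summed CPM was lower in 5XFAD NX without overlap in both sexes, at 21707 to 24855 against 28642 to 32385 in female WT NX and at 21262 to 27973 against 33660 to 37676 in male WT NX. All 8 pan-macrophage genes were detected, with 1 called higher and none lower in each sex under NX. Their summed CPM was 5623 to 6034 in female WT NX, 4601 in 5XFAD NX replicate 4 and 6319 to 7664 in the other 4 5XFAD NX libraries, all of these above WT. Choroid plexus epithelium genes, all 7 detected, were summed at 471 to 1403 CPM in female WT NX and 24.4 to 400 in 5XFAD NX (61.9 to 400 without replicate 4), with 2 called lower under NX (6 without replicate 4) and 3 under CIH. In males the same sum was 620 to 1940 CPM and 252 to 796 CPM, with none called. Endothelial genes, all 8 detected, were summed at 71.2 to 130 CPM in female WT NX and 39.5 to 63.4 CPM in 5XFAD NX, with 2 of 7 called lower; in males the sums were 54.1 to 179 and 71.4 to 156 CPM, with 1 of 8 called lower. Fibroblast genes were summed at 80.9 to 101 CPM in female WT NX and 63.9 to 86.3 CPM in 5XFAD NX, with 1 of 4 called higher and none lower. In males they were summed at 83.3 to 109 CPM and 61.8 to 72.5 CPM, lower in 5XFAD without overlap, with none of 3 called. Under CIH 3 of 12 homeostatic microglia genes fell in females and 2 in males. Of dendritic cell genes 2 of 5 fell and 1 rose in females, and 2 of 4 fell in males. In males 3 of 8 neutrophil genes fell, and of 6 lymphocyte genes 4 rose and 1 fell, whereas none of 8 and none of 3 were called in females. The 8 lymphocyte genes listed summed to only 4.39 to 8.24 CPM in male WT CIH and 11.2 to 13.9 CPM in male 5XFAD CIH. Genes this low can pass the low-value filter through the group where they are high, so their calls support nothing. Monocyte genes (7) had 1 lower in females and 1 higher in males, and endothelial genes had 1 lower in each sex. The part of these cells in the members' change was not tested.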

How the data were processed

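Polyadenylated RNA of CD11b+ isolates was sequenced in 39 libraries. The authors deposited, per sex, whole-number read counts per gene without normalization, and FPKM of the same genes. The submitters' processing notes name HISAT2 and the builds GRCm38 and mm10; the counting tool is not given in the sources used here, nor whether strand was used. FPKM as deposited by the authors divides female counts by length and library total; male denominators were 0.786 to 1.19 times the totals. Groups came from the labels. Nothing says that replicates were separate cohorts, so p-values measure the spread between these samples only.

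Counts were normalised by TMM and tested in R 4.3.3 with edgeR 4.0.16 (quasi-likelihood F test, Benjamini-Hochberg FDR), keeping genes over 1 CPM in 3 or more libraries; all 10 members passed in every comparison. Each pair of groups was fitted alone, and the interaction over all 4 groups of a sex. Comparisons share control libraries. DESeq2 1.42.0, limma 3.58.1 on log2(FPKM + 0.1) and other settings were alternatives. Within-group pairs of libraries all differed by more than sampling noise. On simulated data with 200 genes changed by a log2FC of 2, 173 were called in the female NX comparison and 125 in the male interaction. False calls numbered 8 and 3. The change put in was larger than that of any member, so this does not give the power for the members. The members and lists were chosen with earlier results of these data known. Text names all members and, of other lists, up to 3 called genes with the largest change and the 2 most abundant; likeness lists the 3 nearest genes per member.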

Additional observations from a re-analysis of the deposited data

How the results depend on the processing

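The SDs and counts limit the weakest members most: Folr2 was at 2 to 3 CPM on average in males. Across the settings other than leaving out a replicate, 746 of 780 values kept direction and side of the threshold, 10 lost and 8 gained a call or moved, and 16 changed sign; of 1170 values with 1 replicate left out, 1049 kept both, 39 became weaker, 9 stronger and 73 changed sign. Every value that changed sign was of a member that was not called. Replicate numbers did not pair the samples (no comparison had r over 0.1 in all pairs). With the replicate block the female NX count of members called went from 7 to 0, with log2FC of -1.16 to -1.61 and FDR 0.058 to 0.12, and 6 genes of the whole table were called. WT NX has no replicate 5, so this fit also left out 5XFAD NX replicate 5, without which the count was 1 with no block; the cause was not tested. In male 5XFAD against WT under CIH the count was 4 with library size alone, 1 with the length trend removed (chosen after seeing the data) and 4 with FDR below 0.05 alone. In WT males CIH against NX gave 3 with FDR alone. The male interaction gave 1 (Cbr2) with DESeq2, the likelihood ratio test and no filter. Genes called over the whole male interaction were 0 in the main fit, 308 with DESeq2, 175 with the likelihood ratio test and 790 with no filter. Library size alone moved the median log2FC of all genes to -0.17, -0.21, -0.16 and -0.43 in the 4 comparisons of 5XFAD with WT (females NX and CIH, males NX and CIH).

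Leaving out each replicate gave counts of 0 to 7 for females under NX, 4 to 7 for females under CIH, 3 to 6 for males under NX, 2 to 5 for males under CIH and 0 to 1 for the male interaction. Over the whole table, genes called lower in the first 4 ran from 7 to 867, 552 to 715, 293 to 356 and 846 to 1177. Genes called in the male interaction ran from 0 to 478.

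Log2FC that changed sign by setting were, in females: Lyve1 in WT NX against WT CIH at -0.17 with the replicate block (which also left out WT CIH replicate 5, and without that library alone it was -0.13), Pf4 in 5XFAD NX against CIH at -0.028 with the length trend removed, and the Cbr2 interaction at -0.012 with library size alone, -0.0042 with limma and -0.10 with the length trend removed. In males WT NX against WT CIH, Mrc1 was at -0.016 with the block, -0.029 with limma and -0.094 with the length trend removed, which also gave -0.063 for Cd163 and -0.18 for Stab1, and F13a1 was at 0.023 with library size alone. In males 5XFAD NX against CIH, the length trend removed gave -0.062 for Pf4 and 0.031 for F13a1. In the male interaction, library size alone gave -0.12 for F13a1 and -0.0069 for Stab1, and the length trend removed gave 0.10 for Mrc1.

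With 1 replicate left out, the log2FC of these members crossed 0. In females, 5XFAD NX against 5XFAD CIH, the ranges were Cbr2 -0.21 to 0.036, F13a1 -0.27 to 0.065, Mrc1 -0.33 to 0.0013, Siglec1 -0.11 to 0.16 and Stab1 -0.37 to 0.098. In females, WT NX against WT CIH, the ranges were Cbr2 -0.31 to 0.046, Lyve1 -0.13 to 0.19 and Stab1 -0.015 to 0.13. In females, genotype by treatment interaction, the ranges were Cbr2 -0.19 to 0.18, Cd163 -0.28 to 0.026, Mrc1 -0.066 to 0.29 and Stab1 -0.42 to 0.051. In males, 5XFAD NX against 5XFAD CIH, the ranges were Cd163 -0.14 to 0.37, F13a1 -0.28 to 0.16, Lyve1 -0.11 to 0.65, Mrc1 -0.26 to 0.10, Ms4a7 -0.086 to 0.24 and Pf4 -0.084 to 0.38. In males, WT NX against WT CIH, the ranges were Cd163 -0.094 to 0.22, F13a1 -0.15 to 0.091, Lyve1 -0.0095 to 0.32, Mrc1 -0.11 to 0.19 and Stab1 -0.023 to 0.14. In males, genotype by treatment interaction, the ranges were Cd163 -0.14 to 0.35, F13a1 -0.19 to 0.22, Lyve1 -0.26 to 0.48 and Mrc1 -0.28 to 0.050. In males, WT CIH against 5XFAD CIH, the ranges were Ms4a7 -0.28 to 0.044 and Pf4 -0.42 to 0.013.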

Other observations

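Other lists of the same comparisons were described by counts under NX. Over all genes tested, 4.40% were called higher in females and 5.94% in males. DAM genes (18) rose in 13 in females and 18 in males, and interferon response genes (12) in 10 and 11. Of 5 MHC class II genes none rose in females and 1 in males. Monocyte genes (7) had 1 called lower in females and none in males, dendritic cell genes none of 4 and 2 of 5, and neutrophil genes none of 8 in either sex. Without female 5XFAD NX replicate 4, whose DAM genes lay under the WT range, the female counts were 16 DAM, 12 interferon response and 3 MHC class II genes higher, and 3 monocyte, 2 dendritic cell, 2 neutrophil and 2 mural genes lower. The counts were not compared between the sexes by a test. Lymphocyte genes had none called, of 1 and 3 tested. Mural genes had 1 higher and 1 lower of 5 in females and 1 higher in males.

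Likeness by group-centred log2 CPM also named genes outside the member list. In females Ms4a7 was nearest to Itga4 (r = 0.93) and Folr2 to Aurkaip1 (r = 0.93), and Siglec1 to Ccz1 (r = 0.87). In males Siglec1 was nearest to Slx4 (r = 0.94) and Rnf213 (r = 0.93), Stab1 to Cmip (r = 0.93), and Pf4 to Tmem251 (r = 0.92). The points share libraries, depth and isolation, and no p is given.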
